A study of Rattus norvegicus with 12 samples.

Results

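The transcripts described here are those of 10 genes of the circadian clock, *Clock*, *Per1*, *Per2*, *Per3*, *Cry1*, *Cry2*, *Nr1d1*, *Nr1d2*, *Dbp* and *Tef*, in rat L6 myotubes. They were chosen by name: a probe was taken where its RefSeq accession on the array, without the version, belonged to 1 of these rat genes. This gave 14 probes of 45598 on the arrays, and all 14 were among the 24279 probes tested. L6 is a skeletal muscle cell line of the rat whose myoblasts fuse into multinucleated myotubes in culture. Differentiated cells were given GR24 (a synthetic strigolactone analogue), pinosylvin or resveratrol, each at 60 µM in DMSO, or DMSO alone as the control, and RNA was taken after 24 h. Each group had 3 arrays from 3 experiments on 1 batch of cells, 12 arrays in all, read in 1 colour. The experiments share that batch, so p-values measure the spread between experiments and not between batches of cells. Between 58% and 64.3% of the spots of an array were well above background, and the number of arrays limits the precision.

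The mammalian clock is a feedback loop of transcription in which CLOCK and its partner BMAL1 bind E-box sequences and activate the *Per* and *Cry* genes, whose proteins return to the nucleus and repress that activity. A further loop runs through the nuclear receptors REV-ERBα and REV-ERBβ, which repress *Bmal1*, and outputs such as *Dbp* and *Tef* encode PAR bZIP factors that bind D-box sequences. Skeletal muscle has its own clock, which sets the daily rhythm of genes of fuel use and of muscle structure, and in culture the phase of single cells drifts apart unless a stimulus sets it. All arrays here were taken at the same time after treatment, so a difference in level and a difference in phase cannot be told apart.

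The label of the cells was set against muscle markers. Of 9 myotube markers, 8 had a tested probe, and all 8 were well above background on every array of every group. Their summed level, on a linear scale relative to the 75th percentile of the array, was 823, 905 and 800 on the control arrays and 390, 375 and 362 with GR24. It was 923, 973 and 902 with pinosylvin and 732, 780 and 709 with resveratrol, and the probe of embryonic myosin heavy chain *Myh3* was the brightest and gave the largest part of this sum. Signals of different probes do not rank the transcripts. With GR24, 6 of the 8 fell, where 25.5% of all tested probes did, led by the myogenic factor *Myog* (log2 fold change -5.83, 95% interval -6.15 to -5.51) and skeletal actin *Acta1* (-3.88, -4.06 to -3.71). The others were creatine kinase *Ckm* (-2.58), the troponins *Tnnc1* (-1.14) and *Tnnt3* (-0.94), and *Myh3* (-1.0). Pinosylvin raised 2 of the 8 (8.28% of all probes), *Myog* by 0.73 and *Tnnt3* by 0.54, and resveratrol lowered 3 (8.99% of all probes), *Ckm* (-1.04), *Myog* (-0.51) and *Myh3* (-0.30). With the replicate number as a block, pinosylvin raised 5, where 16.3% of all probes were higher, and resveratrol lowered 5, where 13.8% were lower.

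Of 8 markers of undifferentiated or cycling cells, 6 were tested, of which GR24 and pinosylvin each raised 1 and lowered 3, and resveratrol raised 1 and lowered 2. Over all probes, 57.1%, 16.6% and 17% were called in these comparisons. Their summed level was 24.7 to 29.6 in the control, 6.13 to 6.89 with GR24, 11.2 to 12.1 with pinosylvin and 16.6 to 18.9 with resveratrol. The proliferation marker *Mki67*, whose probe gave the largest part of this sum in the control, fell with all 3 compounds (-2.83, -1.65 and -0.81 for GR24, pinosylvin and resveratrol), as did the mitotic cyclin *Ccnb1* (-2.86, -1.74 and -1.02). The Notch target *Hes1* rose with all 3 (0.65, 0.55 and 0.69). The myogenic factor *Myf5* fell with GR24 alone (-0.88) and *Id1*, an inhibitor of bHLH factors, with pinosylvin alone (-0.77). Of 5 markers of other cell types, *Ptprc*, *Adipoq* and *Cdh1* were not well above background on any array, while the endothelial *Pecam1* was so on no control array, 2 GR24, 2 pinosylvin and 1 resveratrol arrays. Its group means were -6.23 in the control, -4.46 with GR24, -4.59 with pinosylvin and -5.60 with resveratrol, in log2 units relative to the 75th percentile, and it was too dim to be tested. The neuronal tubulin *Tubb3* was the only tested one, with a level of 0.243 to 0.261 in the control and 0.118 to 0.155 in the treated groups, and it fell with each compound (-0.86, -0.90 and -0.82 in the same order). Myotube and cycling markers thus differed between the same groups that are compared for the clock genes, and their part in the results was not tested. In bulk RNA, fewer cells of a kind and less RNA per cell cannot be told apart.

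The comparison of each compound with DMSO asked which clock transcripts differ after a day of treatment. With GR24, 9 of the 10 clock genes were higher than in the control at an adjusted p under 0.05, and none was lower, also at an unadjusted p under 0.05 (limma). Over all tested probes, 31.5% were higher and 25.5% lower with GR24. The median log2 fold change of the 10 genes was 0.34, against 0.03 over all tested probes. Pinosylvin lowered 1 clock gene, *Per2*, and raised none (2 at an unadjusted p under 0.05), where 8.28% of all probes were higher and 8.27% lower. The median of the 10 genes was 0.14, and of all probes 0.05. Resveratrol raised 2, *Nr1d2* and *Tef*, and lowered none (0 at an unadjusted p under 0.05), where 7.99% of all probes were higher and 8.99% lower. Its median was 0.03 over the genes and 0.01 over all probes.

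Arrays with the same experiment number deviated together, so the fit was also made with that number as a block. Experiment 3 alone lay on slide 2, so for it experiment and slide cannot be told apart. With this replicate block, GR24 raised 9 clock genes and lowered 1, *Per3*, where 36.2% of all probes were higher and 30.3% lower. Pinosylvin raised 3 (*Per1*, *Nr1d2* and *Tef*) and lowered 1 (*Per2*) with the block, 4 in place of 1, where 16.3% of all probes were higher and 12.3% lower. Resveratrol raised the same number as without it, 2, where 14.1% of all probes were higher and 13.8% lower.

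**Figure D1:**
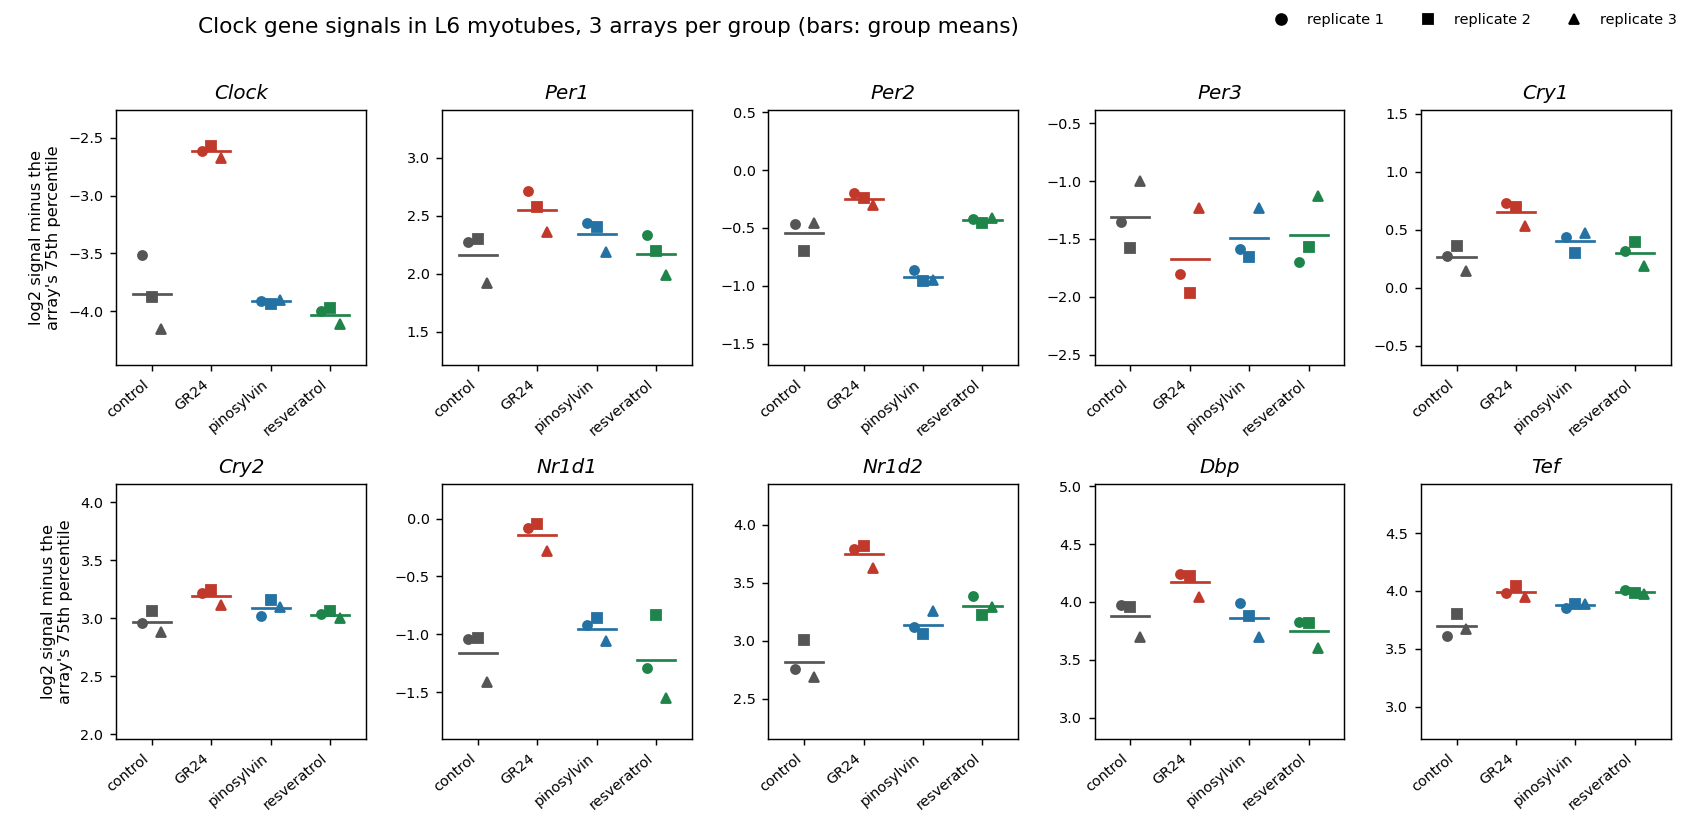
Signal of the 10 clock genes on each array, in log2 units relative to that array's 75th percentile (vertical axis, the same span in every panel), for the control and the 3 compounds (horizontal axis). Points are arrays, marker shapes are the experiments, and bars are group means of 3 arrays. *Clock*, *Nr1d1* and *Nr1d2* lie highest with GR24, *Per2* lies lowest with pinosylvin, and *Per3* is highest in experiment 3 in each group.

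*Clock* encodes the DNA-binding activator of the loop. All array values here are log2 processed signals from which the array's own 75th percentile was subtracted. On that scale its probe read -3.51, -3.88 and -4.15 in the control and -2.62, -2.57 and -2.68 with GR24. It read -3.91, -3.94 and -3.90 with pinosylvin and -4.0, -3.97 and -4.11 with resveratrol. The 3 GR24 arrays lay above all others, while the control arrays spread the widest and overlapped both stilbene groups. With GR24 the transcript rose by 1.22 (SE 0.13, 95% interval 0.94 to 1.51, adjusted p = 1.63e-05 by limma), a 2.33-fold level. The difference was 1.1 on slide 1 and 1.47 on slide 2, and with normexp background correction it was 0.71. Against the control the values were -0.07 (interval -0.36 to 0.22) with pinosylvin and -0.18 (-0.47 to 0.11) with resveratrol. Both changed sign between the slides, from -0.23 to 0.25 and from -0.29 to 0.04. In order of the group means, resveratrol, pinosylvin and the control did not pass as neighbours, although every pinosylvin array lay above the resveratrol arrays, and GR24 stood above them by 1.40, 1.29 and 1.22.

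The other *Clock* probe carried 1 array that stood apart. It read -4.39, -2.10 and -4.54 in the control and -3.32, -3.32 and -3.18 with GR24. Pinosylvin arrays read -4.39, -4.32 and -4.70, of which 2 were well above background, and resveratrol arrays -4.65, -4.53 and -4.49. Control 2 was higher than every other array on this probe, and of the rest the GR24 arrays were the highest and the other groups overlapped. Its difference with GR24 was 0.40 (SE 0.50, adjusted p = 0.536) and did not pass. Nor did GR24 against pinosylvin (1.20, adjusted p = 0.0666) or against resveratrol (1.28, adjusted p = 0.0555) on this probe. Against the control this probe gave -0.79 with pinosylvin (adjusted p = 0.344) and -0.88 with resveratrol (adjusted p = 0.293). As the mean of both probes, *Clock* rose by 0.81 with GR24. Over all settings its difference from the control ran down to -0.43 with pinosylvin and -0.53 with resveratrol, and neither was called under any.

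*Per1*, *Per2* and *Per3* encode the period proteins, the repressors that pair with the cryptochromes. *Per1*, which also responds quickly to glucocorticoid and cAMP signals, read 2.27, 2.30 and 1.92 in the control and 2.71, 2.58 and 2.36 with GR24. It read 2.44, 2.40 and 2.19 with pinosylvin and 2.33, 2.20 and 1.99 with resveratrol. Array 3 was the lowest in each group, and the GR24 arrays lay above the control arrays. The rise with GR24 was 0.39 (SE 0.14, adjusted p = 0.0332), and it was not called with only the 6 arrays of both groups in the fit (adjusted p = 0.0598) or with no filter on dim probes (0.0813). Nor was it called without control 3 (0.26, adjusted p = 0.125), GR24 array 1 (0.30, 0.122) or GR24 array 2 (0.37, 0.0825). Over all settings its adjusted p ran from 0.000197 to 0.125. With pinosylvin the difference of 0.18 (interval -0.12 to 0.48) did not pass, but did with the replicate block (adjusted p = 0.0354), and with resveratrol it was 0.01 (-0.29 to 0.31).

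The other *Per1* probe differed in 2 calls, those of resveratrol against the control and of GR24 against resveratrol. It read -2.41, -2.64 and -2.59 in the control, -2.17, -2.18 and -2.28 with GR24, and -2.31, -2.32 and -2.21 with resveratrol. All resveratrol arrays lay above the control arrays on this probe, with a rise of 0.27 (adjusted p = 0.0305). Its rise with GR24 was 0.34 (adjusted p = 0.00258), and GR24 and resveratrol differed by 0.07 (interval -0.10 to 0.23, adjusted p = 0.501). Pinosylvin against resveratrol was -0.09 (interval -0.25 to 0.07), of the other sign than on the main probe and called on neither.

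*Per2* was the only clock gene called in opposite directions with 2 of the compounds. It read -0.47, -0.70 and -0.46 in the control and -0.20, -0.24 and -0.30 with GR24. With pinosylvin the arrays read -0.86, -0.96 and -0.95, and with resveratrol -0.42, -0.46 and -0.41. The pinosylvin arrays lay below all others and the GR24 arrays above all others, while the resveratrol arrays lay at the upper end of the control. The transcript rose with GR24 by 0.30 (SE 0.074, adjusted p = 0.00536) and fell with pinosylvin (-0.38, SE 0.074, adjusted p = 0.00607). With resveratrol the value was 0.11 (interval -0.05 to 0.28). GR24 and pinosylvin differed by 0.68 (interval 0.51 to 0.84, adjusted p = 2.28e-05). From low to high the groups were pinosylvin, control, resveratrol and GR24, and the neighbours control and resveratrol, and resveratrol and GR24 (0.19, adjusted p = 0.0558), did not pass, although the latter pair did with the replicate block (adjusted p = 0.0273) and without control 2 (0.0217). Within the slides, the rise with GR24 was 0.37 on slide 1 and 0.16 on slide 2. The difference with pinosylvin was -0.32 on slide 1, where it was not called (adjusted p = 0.066), and -0.49 on slide 2. Over all settings its adjusted p ran from 0.00103 to 0.066.

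*Per3* was the clock gene that GR24 did not raise. It read -1.35, -1.58 and -1.0 in the control and -1.80, -1.97 and -1.23 with GR24. Pinosylvin gave -1.59, -1.66 and -1.23, and resveratrol -1.70, -1.57 and -1.13. Array 3 was the highest in every group, and the groups overlapped. The value with GR24 was -0.36 (SE 0.23, interval -0.86 to 0.15, adjusted p = 0.214) and did not pass. Within experiments 1, 2 and 3, GR24 minus control was -0.45, -0.39 and -0.23, so all 3 lay below 0. With the replicate block the difference of -0.36 passed (SE 0.080, adjusted p = 0.00406), as it did on slide 1 alone (-0.42, adjusted p = 0.0164) and without GR24 array 3 (-0.57, adjusted p = 0.0459). Over all settings its adjusted p ran from 0.00384 to 0.538. The 2 stilbenes gave -0.18 (interval -0.69 to 0.33) for pinosylvin and -0.16 (-0.66 to 0.35) for resveratrol, and neither passed with the block.

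*Cry1* and *Cry2* encode the cryptochromes, the stronger repressors of CLOCK and BMAL1. *Cry1* read 0.27, 0.36 and 0.14 in the control, 0.73, 0.70 and 0.53 with GR24, 0.44, 0.30 and 0.47 with pinosylvin, and 0.32, 0.39 and 0.19 with resveratrol. The GR24 arrays lay above all others, and the other groups overlapped. The rise with GR24 was 0.39 (SE 0.088, adjusted p = 0.00288), and the values were 0.15 (interval -0.05 to 0.34) with pinosylvin and 0.04 (-0.15 to 0.24) with resveratrol. *Cry2* read 2.96, 3.06 and 2.88 in the control and 3.22, 3.24 and 3.11 with GR24, against 3.02, 3.16 and 3.10 with pinosylvin and 3.04, 3.06 and 3.00 with resveratrol. The GR24 arrays lay above the control arrays and overlapped those of pinosylvin. Its rise of 0.23 (SE 0.070, adjusted p = 0.0172) was the smallest called with GR24, and was not called with only 6 arrays in the fit (adjusted p = 0.0612) or with no filter (0.0663). Nor was it called without GR24 array 1 (0.21, adjusted p = 0.059), GR24 array 2 (0.20, 0.0607) or control 3 (0.18, 0.0628). Over all settings its adjusted p ran from 0.000589 to 0.0663. *Cry2* differed by 0.13 (interval -0.03 to 0.28) with pinosylvin and 0.07 (-0.09 to 0.22) with resveratrol.

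*Nr1d1* and *Nr1d2* encode REV-ERBα and REV-ERBβ, receptors for heme that repress *Bmal1* and, in muscle, take part in mitochondrial and lipid metabolism. *Nr1d1* read -1.04, -1.03 and -1.41 in the control and -0.08, -0.05 and -0.28 with GR24. With pinosylvin it read -0.92, -0.86 and -1.06, and with resveratrol -1.29, -0.83 and -1.55. The GR24 arrays stood clear of all others, and the resveratrol arrays spread the widest. The rise with GR24 was 1.02 (SE 0.17, interval 0.64 to 1.40, adjusted p = 0.000465), a 2.02-fold level, with 0.96 on slide 1 and 1.12 on slide 2. Pinosylvin gave 0.21 (interval -0.17 to 0.59) and resveratrol -0.07 (-0.45 to 0.31). In order of the means, resveratrol, control and pinosylvin did not differ beyond their spread, and GR24 was above its neighbour pinosylvin by 0.81 (adjusted p = 0.00221).

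*Nr1d2* rose with GR24 and resveratrol. It read 2.76, 3.01 and 2.69 in the control and 3.79, 3.82 and 3.63 with GR24. The arrays read 3.12, 3.06 and 3.26 with pinosylvin and 3.39, 3.22 and 3.29 with resveratrol. All 9 treated arrays lay above the control arrays, the GR24 arrays lay above all others, and the stilbene groups overlapped. The rise was 0.93 with GR24 (SE 0.099, adjusted p = 1.75e-05) and 0.48 with resveratrol (SE 0.099, adjusted p = 0.00776). With pinosylvin the difference of 0.32 (interval 0.10 to 0.54) missed the threshold at an adjusted p of 0.0504, and passed in 12 of 26 other settings, among them the replicate block at 0.0439, without control 2 (0.42, adjusted p = 0.0182) and without GR24 array 3 (0.32, 0.0467). Over all settings that adjusted p ran from 0.00174 to 0.245. Within the slides, pinosylvin gave 0.20 and 0.57, and resveratrol 0.42 and 0.60. From low to high the groups were control, pinosylvin, resveratrol and GR24, of which only resveratrol and GR24 passed as neighbours (0.45, adjusted p = 0.00322).

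A further probe of *Nr1d2* passed with all 3 compounds. It read -3.80, -3.81 and -3.65 in the control, -2.26, -2.40 and -2.31 with GR24, -3.39, -3.27 and -3.34 with pinosylvin, and -3.42, -3.22 and -3.32 with resveratrol. No treated array overlapped the control, and the stilbene arrays lay together. The differences were 1.43 with GR24 (adjusted p = 1.07e-07), 0.42 with pinosylvin (adjusted p = 0.00441) and 0.43 with resveratrol (adjusted p = 0.0035). For GR24 this was larger than on the main probe by more than the errors of both. GR24 against resveratrol was 0.99 on the further probe (adjusted p = 2.36e-06). That difference was 0.45 as reported. Its highest value over all settings, 0.72, came from the mean over the probes of the gene, which includes the further probe.

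*Dbp* and *Tef* encode PAR bZIP activators of D-box genes, outputs of the loop. *Dbp* read 3.97, 3.96 and 3.70 in the control and 4.24, 4.22 and 4.04 with GR24. It read 3.99, 3.88 and 3.70 with pinosylvin and 3.83, 3.82 and 3.6 with resveratrol. Array 3 was the lowest in each group, and the GR24 arrays lay above all others. The rise with GR24 was 0.29 (SE 0.11, adjusted p = 0.0435), which 9 of 26 other settings did not call, among them those without control 3 (0.20, adjusted p = 0.157), control 2 (0.33, 0.05), GR24 array 1 (0.25, 0.129) and GR24 array 2 (0.26, 0.116). It was also lost without pinosylvin array 2 (adjusted p = 0.0586), resveratrol array 1 (0.0536) or resveratrol array 2 (0.0553), with no filter (0.11) and with only 6 arrays (0.0621). Over all settings its adjusted p ran from 0.000282 to 0.157. A further *Dbp* probe rose by 0.54 with GR24 (adjusted p = 0.000794) and was at 0.06 (interval -0.16 to 0.28) with pinosylvin. The values were -0.02 (interval -0.26 to 0.22) with pinosylvin and -0.13 (-0.37 to 0.12) with resveratrol.

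*Tef* read 3.61, 3.80 and 3.67 in the control and 3.98, 4.04 and 3.95 with GR24. The arrays read 3.85, 3.89 and 3.89 with pinosylvin and 4.01, 3.98 and 3.97 with resveratrol. Every treated array lay above the control arrays, and GR24 and resveratrol arrays overlapped. The rise was 0.30 with GR24 (SE 0.062, adjusted p = 0.00199) and 0.29 with resveratrol (SE 0.062, adjusted p = 0.00953). With pinosylvin the difference of 0.18 (interval 0.04 to 0.32, adjusted p = 0.0764) did not pass without the replicate block and passed with it (adjusted p = 0.0316), as it did without control 2 (0.23, adjusted p = 0.0362) and with quantile normalization (0.19, 0.0347). The rise with resveratrol was not called on slide 1 alone (0.28, adjusted p = 0.0599), with only 6 arrays in the fit (adjusted p = 0.0632) or with no filter on dim probes (adjusted p = 0.0521), over a range of 0.00233 to 0.0632. GR24 and resveratrol differed by 0.01 (interval -0.13 to 0.14).

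Pinosylvin and resveratrol are stilbenes that differ in an additional hydroxyl group on resveratrol, and both were given at the same dose and time. Between them, 1 of the 10 clock genes differed, *Per2*, which was lower with pinosylvin, and none was higher (0 at an unadjusted p under 0.05, limma), where 7.68% of all tested probes were higher and 6.85% lower. Its arrays read -0.86, -0.96 and -0.95 with pinosylvin and -0.42, -0.46 and -0.41 with resveratrol (log2 difference -0.49, SE 0.074, interval -0.65 to -0.32, adjusted p = 0.00176), and they did not overlap. The difference was -0.47 on slide 1 and -0.53 on slide 2. For the other 9 genes the test did not pass, and the intervals show what sizes it leaves. They were -0.17 to 0.40 for *Clock*, -0.13 to 0.48 for *Per1*, -0.53 to 0.48 for *Per3*, -0.09 to 0.30 for *Cry1* and -0.09 to 0.22 for *Cry2*. They were -0.10 to 0.66 for *Nr1d1*, -0.38 to 0.06 for *Nr1d2*, -0.14 to 0.35 for *Dbp* and -0.25 to 0.03 for *Tef*. With the replicate block, *Per1* also passed (0.17 higher with pinosylvin, adjusted p = 0.0452), so that 1 gene was higher and 1 lower where 14.4% of all probes were higher and 11.6% lower. With the slide as the block, *Per1* did not pass (adjusted p = 0.0503).

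GR24 is no stilbene, and it was set against both at the same dose and time, which with the comparisons above makes 6 pairs of groups, each adjusted over all tested probes. Against pinosylvin, 6 clock genes were higher with GR24 (*Clock*, *Per2*, *Cry1*, *Nr1d1*, *Nr1d2* and *Dbp*), and none lower (0 at an unadjusted p under 0.05, limma), where 29.6% of all probes were higher and 26.8% lower. Against resveratrol, 6 were higher (*Clock*, *Per1*, *Cry1*, *Nr1d1*, *Nr1d2* and *Dbp*), and none lower (0 at an unadjusted p under 0.05), where 27.4% of all probes were higher and 23.9% lower. Of these, *Cry1* (0.25) and *Dbp* (0.31) against pinosylvin, each at an adjusted p of 0.033, were each lost without any of 4 single arrays. For *Cry1* these were GR24 arrays 1 and 2 and pinosylvin arrays 1 and 2, with 0.20 to 0.27 left. The *Cry1* difference was 0.34 on slide 1 and 0.06 on slide 2, and its call was also lost with normexp (adjusted p = 0.0533) and with no filter (0.0977). For *Dbp* they were GR24 arrays 1 and 2 and pinosylvin arrays 2 and 3, with 0.23 to 0.32 left, and no filter also ended the call (adjusted p = 0.0883). The *Nr1d2* difference from pinosylvin was 0.72 on slide 1 and 0.37 on slide 2. *Per1* against resveratrol (0.38, adjusted p = 0.0403) was lost without GR24 array 1 or 2, pinosylvin array 2, or resveratrol array 2 or 3, with 0.29 to 0.39 left. It was also lost as the mean over both probes (0.22, adjusted p = 0.0587), with only 6 arrays (0.0507) and with no filter (0.095). Other settings added calls. *Tef* (0.12 as reported) was higher than with pinosylvin in 4 of 26 settings, up to 0.21 with quantile normalization (adjusted p = 0.00546), and *Cry2* (0.10) in 3, up to 0.19 with the percentile over spots (0.0162), while *Per1* (0.20) was in 5. Against resveratrol, *Cry2* (0.16) passed in 6 settings and *Per2* in 6. On the main probes as reported, the largest differences from pinosylvin and resveratrol were *Clock* at 1.29 and 1.40 and *Nr1d1* at 0.81 and 1.08. Over all settings those of *Clock* ran down to 0.68 and 0.84, and those of *Nr1d1* to 0.68 and 0.9. The further *Nr1d2* probe gave 1.01 and 0.99. With the replicate block, 7 were higher against pinosylvin, *Per1* added (adjusted p = 0.00854), and 8 against resveratrol, *Per2* and *Cry2* (0.0265) added, and none lower in either pair. With it, 34.2% of all probes were higher and 32.3% lower against pinosylvin, and 32.7% higher and 28.5% lower against resveratrol.

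**Figure D2:**
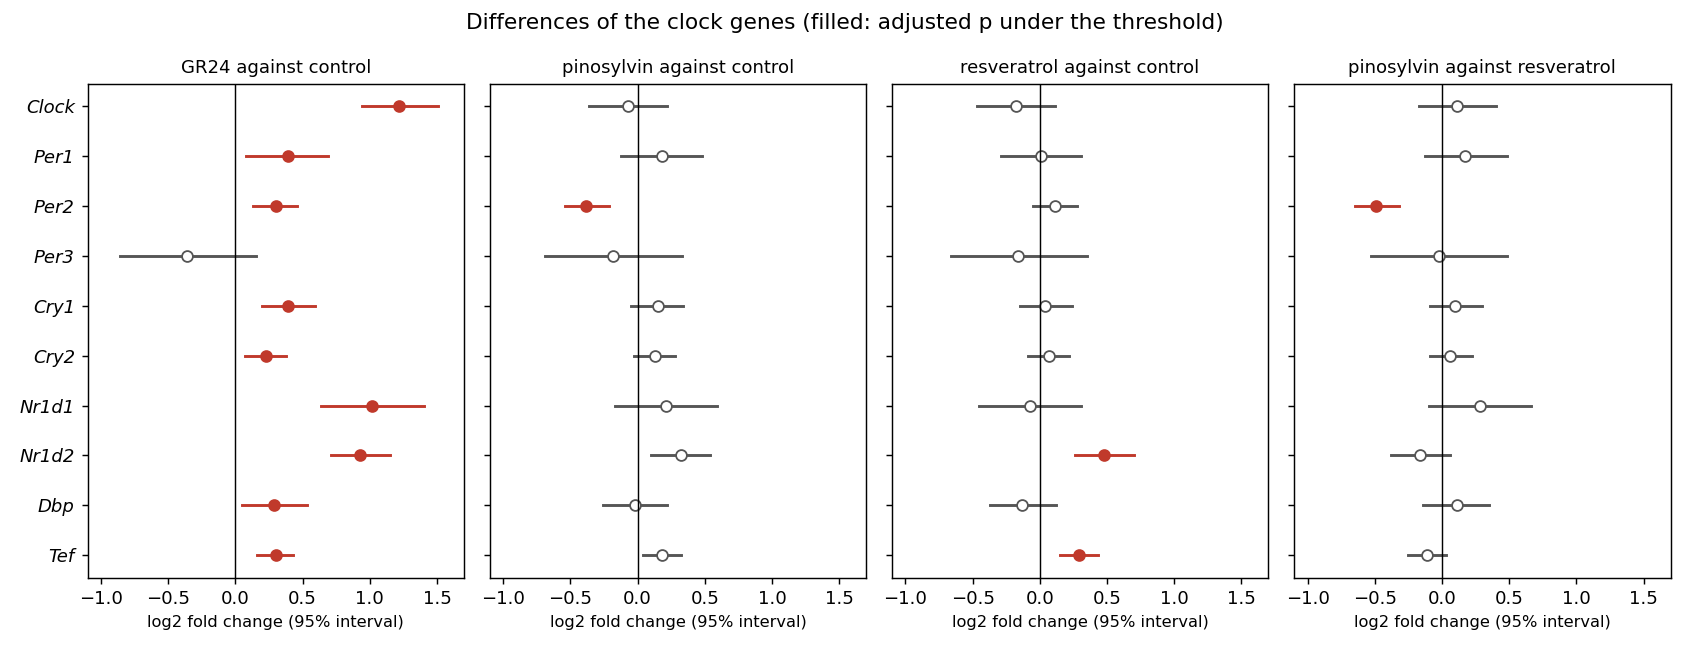
Log2 fold change of each clock gene (horizontal axis) for each compound against the control and for pinosylvin against resveratrol. Points are limma estimates from 12 arrays, lines their 95% intervals, and filled red points have an adjusted p under 0.05. With GR24, 9 genes lie to the right of 0 and *Per3* at -0.36 is not called, and in the pair of stilbenes *Per2* at -0.49 is the only filled point.

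Other transcription factors of the clock were read from a list of 11, of which 4 had a tested probe, and all 4 changed with GR24, 3 higher and 1 lower, where 31.5% of all tested probes were higher and 25.5% lower. Resveratrol called the same number, where 17% of all probes were called. *Bmal1*, the partner of CLOCK and the target of REV-ERB repression, read 0.27, 0.11 and 0.33 in the control and 0.72, 0.94 and 0.78 with GR24. It read 0.56, 0.41 and 0.43 with pinosylvin and 0.46, 0.74 and 0.54 with resveratrol, so that every treated array lay above the control. It rose by 0.58 with GR24 (SE 0.096, adjusted p = 0.000446) and by 0.35 with resveratrol (adjusted p = 0.0328), and was at 0.23 (interval 0.02 to 0.44) with pinosylvin. *Npas2*, a paralogue of CLOCK, was the factor that fell, at -0.63 with GR24 (adjusted p = 0.000136) and -0.50 with resveratrol (adjusted p = 0.00324). The repressor *Bhlhe40*, which competes for E-boxes, rose by 1.07 with GR24 (adjusted p = 5.37e-06) and 0.57 with resveratrol (adjusted p = 0.00282), and was lower with pinosylvin than with resveratrol (-0.36, adjusted p = 0.0342). *Nfil3*, the repressor of D-box genes, rose by 0.40 with GR24 and 0.60 with resveratrol. Pinosylvin called none of the 4 (3 at an unadjusted p under 0.05), where 16.6% of all probes were called, and with the replicate block it called *Nfil3* (0.30, adjusted p = 0.0106), where 28.6% were.

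Of 11 kinases, ubiquitin ligases and other modifiers of clock proteins, 9 were tested. With GR24, 2 rose and 2 fell, pinosylvin lowered 1, and resveratrol raised 1 and lowered 1. Over all tested probes 57.1%, 16.6% and 17% were called in these comparisons, so the counts of this list lie near or below the background. *Timeless*, which in mammals acts mainly at replication forks, read 0.20, 0.18 and 0.19 in the control and -1.19, -1.20 and -1.30 with GR24. It read -0.66, -0.60 and -0.61 with pinosylvin and -0.84, -0.70 and -0.83 with resveratrol. No group overlapped the control, and the falls were -1.42, -0.82 and -0.98 in that order. *Csnk2a1*, a catalytic subunit of casein kinase 2, rose by 0.41 with GR24, and *Nono*, an RNA-binding partner of the PER proteins, fell (-0.44). Resveratrol lowered 2 of the 9 with the replicate block, *Nono* added (-0.16, adjusted p = 0.0382), where 13.8% of all probes were lower. The deubiquitinase *Usp2* rose with resveratrol by 0.24 (adjusted p = 0.0268), while its other probe at 0.36 did not pass (0.0676). *Gsk3b*, a kinase that phosphorylates several clock proteins, rose with GR24 by 0.51 on its main probe, while its other probes gave 0.16, 0.19 and 3.52. On the probe with 3.52 the arrays read -1.87, -1.70 and -1.84 in the control and 1.73, 1.82 and 1.59 with GR24. This probe also rose with pinosylvin, by 0.45 (adjusted p = 0.0048), and was higher there than with resveratrol (0.30, adjusted p = 0.0376). The probes of this gene thus disagreed in size. Other probes of *Btrc*, which encodes a ubiquitin ligase subunit, and *Csnk1d*, a casein kinase, rose with GR24 by 0.56 (adjusted p = 1.32e-05) and 0.34 (adjusted p = 0.0394). Their main probes, at 0.12 and 0.01, did not pass, so the count of 2 depends on the probe chosen. Both were named after their values were seen.

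Among 11 genes known to follow the clock in muscle or other tissues, 10 were tested, of which GR24 raised 5 and lowered 3, where 31.5% of all probes were higher and 25.5% lower. *Alas1*, the first enzyme of heme synthesis, rose by 1.30, *Klf10* by 0.90, *Por* by 0.83, *Nampt*, the rate-limiting enzyme of NAD salvage, by 0.79 (0.56 and not called on its other probe) and *Dgat2* by 0.58. Those that fell were the muscle genes *Tcap* (-1.59) and *Ucp3* and the metabolic factor *Klf15* (-1.46). *Ucp3* was not well above background on any GR24 array, and its fall from the control is given as an approximate bound of 3.06-fold. This bound sets the control mean against the lowest signal well above background on the GR24 arrays. Some brighter probes were not well above background there, such as the untested *Ciart* at -4.80 and -4.52 on GR24 arrays 1 and 2. The bound is therefore not strict, and the fall may be smaller. *Klf15*, well above background on 2 of the 3 GR24 arrays, read -3.12, -2.82 and -2.80 in the control and -4.13, -4.60 and -4.37 with GR24, against -2.39, -2.55 and -2.32 with pinosylvin and -2.43, -2.54 and -2.37 with resveratrol. It was below the control on every GR24 array and above it on every stilbene array, and rose by 0.49 with pinosylvin and 0.46 with resveratrol. Pinosylvin raised 2 of the 10 and lowered 1 (8.28% and 8.27% of all probes), and resveratrol raised 1 and lowered none (7.99% and 8.99%). Beside *Klf15*, those with pinosylvin were the cell cycle inhibitor *Cdkn1a* (0.33) and the cell cycle kinase *Wee1* (-0.37), named after their values were seen. With GR24 the main *Cdkn1a* probe was at -0.15 (adjusted p = 0.058), while its other probe rose by 0.36 (adjusted p = 0.00574). With the replicate block pinosylvin raised 4 and lowered 2, resveratrol raised 2, and GR24 lowered 4, the main *Cdkn1a* probe added (adjusted p = 0.0191). The block also raised the shares over all probes, to 16.3% higher and 12.3% lower with pinosylvin, 14.1% higher with resveratrol and 30.3% lower with GR24.

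The last list held 10 genes that carry or respond to hormone and cAMP signals, which can reach the clock, and 9 of them were tested. GR24 raised 4 and lowered 3, where 31.5% of all probes were higher and 25.5% lower. Pinosylvin and resveratrol each raised 3 and lowered 1, where 8.28% and 7.99% of all probes were higher and 8.27% and 8.99% lower. The glucocorticoid-responsive kinase *Sgk1* read -0.29, -0.25 and -0.35 in the control and 0.87, 0.83 and 0.97 with GR24, against 0.62, 0.57 and 0.59 with pinosylvin and 0.52, 0.44 and 0.50 with resveratrol. It rose in all 3 treated groups, by 1.19, 0.89 and 0.78, with no overlap with the control. *Klf9* also rose with all 3 (1.20, 0.44 and 0.67), while *Fkbp5*, a further glucocorticoid-responsive gene, fell with all 3 (-0.46, -0.51 and -0.31). The glucocorticoid-responsive *Tsc22d3* fell with GR24 (-1.27), as did the salt-inducible kinase *Sik1* (-1.57). The cAMP-responsive factor *Crem* rose by 1.08 with GR24 on its main probe and by 1.68 to 1.87 on 3 others, and *Dusp1* by 0.46. *Fos* rose by 0.52 with pinosylvin and 0.48 with resveratrol. With the replicate block pinosylvin raised 5 in place of 3, while the share of all probes that were higher went from 8.28% to 16.3%.

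For the 3 clock genes with the widest range of group means, the genes outside these lists with the most similar differences were sought among 6769 genes. The candidates were named genes that were well above background on every array and called with any compound against the control. Likeness was the root mean square difference over the 3 comparisons with the control, which share the control arrays. For *Clock* the most similar were *Agps* (0.023), *Zfp507* (0.037) and *Mettl4* (0.043). For *Nr1d1* they were *Ddx18* (0.017), *Arnt* (0.046) and *Lin7c* (0.047), and for *Nr1d2* *Mat2a* (0.013), *Iqsec2* (0.027) and *Rogdi* (0.028). *Mat2a*, for example, had differences of 0.92, 0.31 and 0.46 with GR24, pinosylvin and resveratrol, beside 0.93, 0.32 and 0.48 for *Nr1d2*.

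Since most members moved together with GR24, their promoters were read for the elements through which the clock regulates its own genes. RefSeq promoters of the rat build GRCr8, 300 bases from 250 before to 50 after the annotated start, were found for 9 of the 10 genes, 11 promoters in all. The table had none for *Cry1*. Both strands were searched for the E-box CACGTG, the noncanonical E-box CACGTT, the D-boxes TTATGTAA and TTACGTAA, the ROR and REV-ERB core TAGGTCA or TGGGTCA, the cAMP response element TGACGTCA and the antioxidant response element core TGACNNNGC. The E-box was in 2 of the 11 (6.42% of all 33469 promoters), the noncanonical E-box in 3 (4.83%), TTATGTAA in 1 (0.893%) and the antioxidant core in 1 (12.1%). TTACGTAA (0.12% of all promoters), TAGGTCA (2.63%), TGGGTCA (4.09%) and TGACGTCA (1.83%) were in none of the 11. A match describes these letters only.

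The promoters that hold an E-box or a D-box are shown for the 4 genes that have one, 5′ to 3′ on the strand of the gene, with the matched letters in capitals. *Per2*, which GR24 raised and pinosylvin lowered, lies on the minus strand at chr9:99496944-99497243. Its D-box starts 192 bases before the annotated start and its noncanonical E-box 62 bases before it, and the latter overlaps a match of the antioxidant core on the other strand.
Per2: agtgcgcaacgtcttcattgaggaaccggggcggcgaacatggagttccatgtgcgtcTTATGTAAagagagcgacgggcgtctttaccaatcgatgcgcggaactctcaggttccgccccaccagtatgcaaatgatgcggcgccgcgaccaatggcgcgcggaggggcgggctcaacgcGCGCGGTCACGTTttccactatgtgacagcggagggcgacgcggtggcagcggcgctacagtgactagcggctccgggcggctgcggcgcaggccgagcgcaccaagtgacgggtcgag
*Tef*, which rose with GR24 and resveratrol, lies on the plus strand at chr7:115206577-115206876, with an E-box 198 bases before the start.
Tef: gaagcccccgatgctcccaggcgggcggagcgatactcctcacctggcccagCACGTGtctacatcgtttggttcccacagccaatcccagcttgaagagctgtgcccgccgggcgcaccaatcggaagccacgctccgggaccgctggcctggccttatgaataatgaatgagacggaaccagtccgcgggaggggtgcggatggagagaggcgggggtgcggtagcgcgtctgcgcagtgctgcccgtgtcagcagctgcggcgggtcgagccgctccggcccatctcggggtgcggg
*Nr1d1*, which rose with GR24, has a pair of promoters on the minus strand. That at chr10:84229405-84229704 has an E-box 191 bases before the start, and that at chr10:84231763-84232062 a noncanonical E-box, in reverse, 174 bases before it.
Nr1d1 with the E-box: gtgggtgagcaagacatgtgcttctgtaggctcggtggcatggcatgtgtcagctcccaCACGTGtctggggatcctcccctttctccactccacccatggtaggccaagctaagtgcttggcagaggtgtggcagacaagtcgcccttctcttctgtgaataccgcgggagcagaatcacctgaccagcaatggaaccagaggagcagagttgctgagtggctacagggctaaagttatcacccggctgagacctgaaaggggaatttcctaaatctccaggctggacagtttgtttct
Nr1d1 with the noncanonical E-box: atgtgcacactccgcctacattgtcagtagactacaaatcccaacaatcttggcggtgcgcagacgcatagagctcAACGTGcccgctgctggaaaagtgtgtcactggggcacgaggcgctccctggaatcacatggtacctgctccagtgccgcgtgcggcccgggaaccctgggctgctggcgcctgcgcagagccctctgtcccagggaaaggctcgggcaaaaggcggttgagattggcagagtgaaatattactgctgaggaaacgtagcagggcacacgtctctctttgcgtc
*Cry2*, which rose with GR24, lies on the minus strand at chr3:98860388-98860687, with a noncanonical E-box, in reverse, 212 bases before the start.
Cry2: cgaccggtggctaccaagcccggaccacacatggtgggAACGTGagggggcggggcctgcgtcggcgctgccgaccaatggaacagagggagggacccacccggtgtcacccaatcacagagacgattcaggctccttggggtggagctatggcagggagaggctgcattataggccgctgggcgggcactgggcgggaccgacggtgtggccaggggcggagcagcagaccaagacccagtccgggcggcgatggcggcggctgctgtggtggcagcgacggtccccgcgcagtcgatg
*Clock*, *Per1*, *Per3*, *Nr1d2* and *Dbp* held none of the searched letters in these windows.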

How the data were processed

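RNA of 12 samples was hybridised to Agilent 1-colour rat arrays, and the scanner output was deposited by the authors for every sample, made with Agilent Feature Extraction 12.0.0.7 according to the submitters' processing notes. Its processed signal is an intensity that the authors' scanner software had already corrected for local background. The authors also deposited a table of normalized log2 values, whose normalization is not given in the sources used here, and which served as an alternative. From the scanner output, the control features were dropped, outlier-marked features counted as missing, and repeated features of a probe averaged. Each value is a log2 processed signal, less the array's own 75th percentile. The percentile was taken over probes, each counted once. It was also taken over spots, where probes spotted 10 times weigh more, and the form over probes was kept after the results of both had been seen, since the planned design did not settle it and an earlier analysis of these arrays had used it. Its effect is given with the other alternatives.

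Testing was limited to the 24279 of 45598 probes that stood well above background in every replicate of some group. limma 3.58.1 in R 4.3.3 fitted a mean per group to all 12 arrays, followed by eBayes, and p-values were adjusted for each comparison across all tested probes (Benjamini-Hochberg) and called under 0.05. The fit was tested on simulated data, from which no result given here is drawn. Names came from RefSeq accessions matched to the gene table of rat assembly GRCr8, which named 21109 probes. A gene is represented by its tested probe with the highest mean, and other probes of a clock gene are given where a sign or a call differs. From the other lists, genes called against the control are named, at most 8 a list by size, with *Cdkn1a*, *Wee1*, *Btrc* and *Csnk1d* added after their values were seen. The members and lists were chosen with earlier results of these data known. The sample labels give 6 days of differentiation and the methods 7.

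Deviations from the group mean correlated at 0.191 to 0.744 over the 18 pairs of arrays with the same replicate number, all over 0.1. The methods speak of separate experiments, so by that rule the numbers were taken to pair the samples. This pairing entered the fit with the replicate block and not the main fit, which has no block. In 5 of the 18 pairs, all of experiments 1 and 2, an array correlated more with another number. These experiments lay on slide 1 and experiment 3 on slide 2, so much of the pairing may be that of the slides. The alternatives were quantile normalization, normexp (offset 50) with either scaling, the deposited table, other filters on dim probes, only the 6 arrays compared, replicate or slide as a block, slide 1 alone, trend and robust eBayes, the mean over probes, spots with outlier marks kept, and each array left out.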

Additional observations from a re-analysis of the deposited data

How the results depend on the processing

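Of 25 differences called for clock genes over the 6 comparisons, 17 were called under all 26 settings that gave a test, and 8 were lost under at least 1. The GR24 differences of *Clock*, *Per2*, *Cry1*, *Nr1d1*, *Nr1d2* and *Tef* against the control were among those kept throughout. Every setting used the main probe of a gene or, in the mean over probes, all its tested probes. The other *Clock* probe alone, described above, did not pass with GR24. Against the control, GR24 called 6 to 10 clock genes under the alternatives. Of 35 differences not called, 10 were called under at least 1 setting. The cause was not tested except where named.

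Pinosylvin against control, 1 clock gene as reported, gave 3 with quantile normalization, 2 with normexp and the 75th percentile, 2 with normexp and quantile normalization, 2 with the deposited table, 2 with only probes above background on all arrays, 2 with trend and robust eBayes, 2 with the mean over probes and 0 on slide 1 alone, which has fewer arrays. It gave 1 to 3 when an array was left out, with 3 without control 2 and 2 without GR24 array 3. With the replicate block it gave 4 and with the slide as a block 4. Resveratrol against control, 2 as reported, gave 1 with no filter on dim probes, 1 with only the 6 arrays compared and 1 on slide 1 alone. Pinosylvin against resveratrol, 1 as reported, gave 2 with the replicate block. Over all 60 differences the block added 8 calls, all named above or in the comparisons of GR24 with the stilbenes, and ended none.

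The reported percentile over probes was chosen after the results under both forms were seen. The percentile over spots, the earlier of them, gave 3 clock genes for pinosylvin against control, where 1 is reported, and 9 for GR24 against control. It gave 9 for GR24 against pinosylvin and 8 against resveratrol, where 6 are reported for each. The calls added were *Per1* (0.29, adjusted p = 0.0484), *Cry2* (0.19, 0.0162) and *Tef* (0.21, 0.00918) against pinosylvin, and *Per2* (0.30, 0.00618) and *Cry2* (0.27, 0.00233) against resveratrol. The median of all probes went from -0.003 to 0.087 against pinosylvin and from 0.024 to 0.135 against resveratrol. *Cry2* gained about as much, from 0.10 and 0.16 as reported. The percentile over spots moves all probes of an array alike, so these added calls do not set the clock genes apart. It moved the median of all probes from 0.027 to 0.127 for GR24 against control, and quantile normalization moved it to 0.107. Relative to these shifts, *Clock* at 1.32 with either and *Cry2* at 0.33 and 0.31 still lay above the median. For GR24 against resveratrol, 64.1% of called probes were higher over spots and 53.4% as reported.

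Values that changed sign were never called. The largest change was *Clock* with pinosylvin, -0.23 on slide 1 and 0.25 on slide 2, which has 1 array a group and no test, and *Clock* with resveratrol went from -0.29 to 0.04. Other values of *Clock* with pinosylvin above 0 were 0.03 with normexp and the 75th percentile and 0.01 with the deposited table. For *Per1* with resveratrol the values below 0 were -0.02 with normexp, -0.04 with normexp and quantile normalization, -0.04 with the deposited table and -0.02 on slide 1. *Per3* between the stilbenes was 0.01 on slide 1, *Tef* between GR24 and resveratrol -0.02 on slide 2, and *Dbp* with pinosylvin 0.02 as the mean over probes. When an array was left out, *Clock* with pinosylvin ran from -0.22 to 0.10, *Dbp* with pinosylvin from -0.11 to 0.06, *Per1* with resveratrol from -0.11 to 0.10, *Cry1* with resveratrol from -0.02 to 0.10, *Nr1d1* with resveratrol from -0.26 to 0.10, *Per3* between the stilbenes from -0.16 to 0.15, and *Tef* between GR24 and resveratrol from -0.02 to 0.02.

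Over all probes, the calls for pinosylvin against control went from 4019 to 6947 with the replicate block, 7074 with the slide block, 2409 with no filter and 2638 with 6 arrays. For resveratrol against control they went from 4123 to 6769, 6869 with the slide block and 2680 with no filter, and between the stilbenes from 3528 to 6323, 6443 and 1975, and to 2146, 2218 and 2303 without pinosylvin 2, resveratrol 2 and resveratrol 3. *Clock* lies near the background, and its GR24 difference was 0.71 and 0.76 with normexp.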
